A study of Rattus norvegicus with 115 samples.

Results

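Untreated mammary tumours of rats were described here through their epithelium and their leukocytes. The members are the count columns of tumours from rats of the untreated cohort, divided by measured values: leukocyte columns were selected on at least 300 CPM (counts scaled to the same total in every column) of Ptprc, and epithelial columns on under 150 CPM of Ptprc with at least 300 CPM of Epcam. Of 20 columns from 8 rats, 10 columns of 8 rats were epithelial, 9 columns of 7 rats were leukocyte and 1 was neither. The count table of the whole series holds 31 columns used here, these 20 and 11 of the labelled comparison, and 77 others. A column is 1 sequenced library of 1 tumour. All were tumours of virgin Sprague Dawley rats given N-nitroso-N-methylurea (NMU), a carcinogen that induces mammary tumours, at 50 mg/kg in 1 to 3 injections at ages of 35 to 53 days per the labels, with no treatment after that. For rats C2, C3 and C5 the deposited sample table gives 32 to 36 as the age at injection and 35 for the others, without a unit. The labels list 10 samples of a CD45 fraction and 10 of an Ep fraction for these tumours, but column names give only the rat and the tumour, so the class of a column rests on its own Ptprc and Epcam. For 6 tumours the fraction and the read-file name in the deposited sample table disagree, and neither was used. The labelled comparison below used libraries from other rats of the same model: 8 libraries labelled CD45 (3 from vehicle rats, 2 from rats given LY2157299, which blocks TGFBR1, a receptor kinase for TGF-beta, and 3 from rats given that inhibitor with an antibody against PD-L1) and 3 labelled DN (1 each from vehicle, anti-PD-L1 and combination rats). The study's design text describes cells sorted by EpCAM and SMA, with DN standing for cells that lack both.

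Mammary epithelium has a luminal layer, which makes milk proteins and carries hormone receptors, and a basal layer of contractile cells. CD45, the phosphatase encoded by Ptprc, is carried by nearly all blood-derived cells, and EpCAM is an adhesion protein of epithelial cells. TGF-beta is secreted in a latent complex that is held by latency proteins and set free by integrins and other activators, and checkpoint ligands on tumour or immune cells bind inhibitory receptors on T cells.

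Ptprc and Epcam defined the classes and are given as a description only. Ptprc ran from 0.0721 to 84.6 CPM, with the highest value in tumour T2 of rat C9, in the epithelial columns, and from 498 to 1667 CPM in the leukocyte columns. Epcam ran from 381 to 4042 CPM in the epithelial columns and from 8.28 to 36.9 CPM in the leukocyte columns. Nearest to the thresholds lay the epithelial columns of rats C2 and C3 by Epcam (381 and 482 CPM) and that of tumour T2 of rat C9 by its Ptprc. Among leukocyte columns those of rats C2 and C3 lay nearest by Ptprc (498 and 600 CPM). The column in neither class, from rat C5, held 165 CPM of Ptprc and 18.98 CPM of Epcam. Only 2 tumours had samples of 1 fraction alone, and their columns went with the label: tumour T2 of rat C9, labelled Ep, was epithelial, and tumour T6 of rat C10, labelled CD45, was leukocyte.

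**Figure D1:**
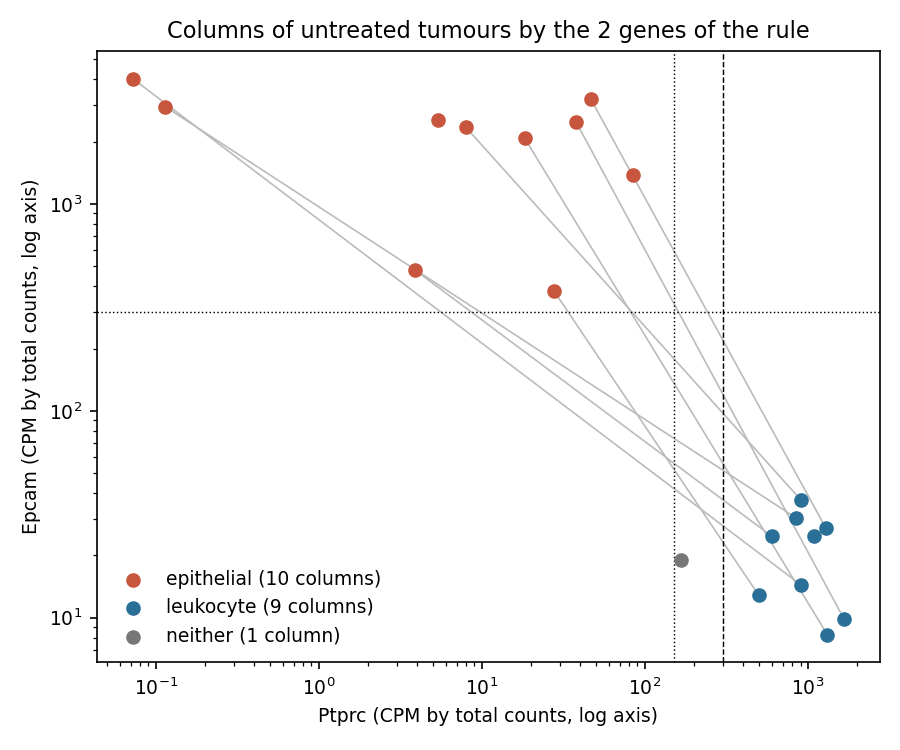
Epcam against Ptprc in the 20 columns of untreated tumours, both in CPM by total counts on log axes, with grey lines joining both columns of a tumour and dashed and dotted lines at the thresholds of 300 and 150 CPM for Ptprc and 300 CPM for Epcam. The 10 epithelial columns hold at least 381 CPM of Epcam, the 9 leukocyte columns at most 36.9 CPM, and 1 column lies in neither class.

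Total counts ran from 2353564 to 26635144 over the 20 columns. Genes with counts ran from 8278 in the epithelial column of tumour T4 of rat C10 to 16318 in that of tumour T2 of rat C9. Log values of a pair of columns correlated at 0.708 to 0.937 among leukocyte columns, at 0.472 to 0.946 among epithelial columns and at 0.385 to 0.648 between classes. The epithelial columns of rats C2 and C3 stood apart with the most collagen, and they are 2 of the 3 rats with another listed age at injection. All columns belonged to batch 1 except the epithelial column of tumour T2 of rat C9, in batch 3. In 70 genes no batch 1 column of these tumours had over 2 counts while a batch 3 library had 100 or more, among them Pdcd1, the gene of PD-1, so these genes could not be read. In bulk RNA, fewer cells of a type and less RNA per cell cannot be told apart. That sample table also calls the untreated rats vehicle rats, which the labels do not.

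Levels from here on are CPM scaled by the trimmed mean of M values (TMM), given as mean ± SD over rats, with n = 7 leukocyte and n = 8 epithelial rats. Log2 fold changes are epithelial minus leukocyte from edgeR with the rat as a block, ± SE, from the 7 rats with both classes, and they carry no p because measured values chose the classes. A gene is called separate where every column of one class lay above every column of the other and the fitted fold was at least 2. Of 11136 genes fitted, 399 (3.58%) were separate and higher in the epithelial columns, and 439 (3.94%) were separate and higher in the leukocyte columns. Each count of separate genes in a list below is to be read beside these shares of all genes. Without rats C2 and C3 the counts were 549 (4.89%) and 719 (6.4%) of 11238 genes, and without rat C10 they were 732 and 619. Batch 1 alone gave 380 and 494. Scaling by total counts alone moved the median log2 difference of all genes from -0.09 to 0.32, and gave 494 and 277 separate genes.

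The labelled libraries allow a test, because labels and not values formed their groups, although the marker genes of these libraries had been seen before. Epcam lay at 944 to 3180 CPM in the 3 libraries labelled DN, so their content goes against the description of the fraction, and they are called by their label only. By edgeR's quasi-likelihood test with treatment as a covariate, at an adjusted p below 0.05, 1566 of 11810 genes (13.3%) were higher in the libraries labelled DN and 1008 (8.54%) were higher in those labelled CD45. Rat P23 gave a library of each label, and without it the counts were 630 and 770. Without the DN library of rat P10 they were 661 and 509. The CD45 libraries of rats P16 and P31 belonged to batch 2 and all others, DN included, to batch 3, and batch was not in the model. Batch 3 alone gave 1050 and 649 genes. Of the 399 genes separate towards epithelium, 348 (87.2%) were also higher in the libraries labelled DN, which is 23.9% of the DN calls among the 10930 genes in both fits. Of the 439 genes separate towards leukocytes, 349 (79.5%) were also higher in the CD45 libraries, 35.1% of the CD45 calls. No gene was called in opposite directions.

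**Figure D2:**
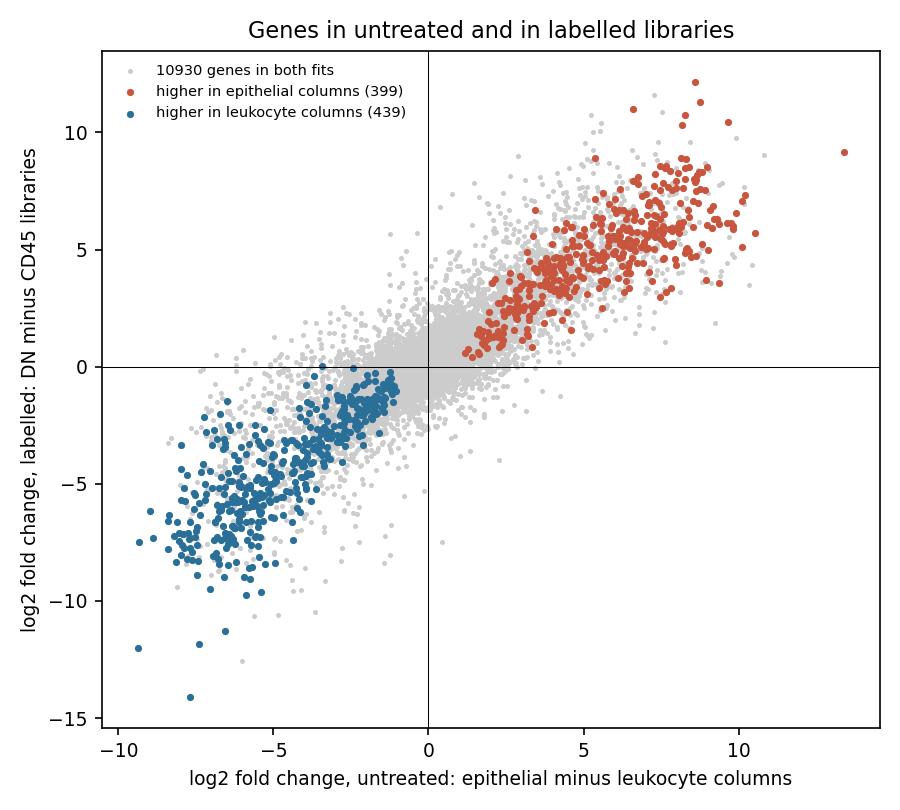
Log2 fold change of 10930 genes in untreated tumours (x axis, epithelial minus leukocyte columns) against the labelled libraries (y axis, DN minus CD45). All 399 genes separate towards epithelium lie above 0 on the y axis, and 438 of the 439 genes separate towards leukocytes lie below it.

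Luminal genes were higher in the epithelial columns. Of 24 fitted genes of luminal keratins and cell junctions 18 were separate, all towards epithelium, with a median log2 fold change of 6.05 against -0.09 for all genes. Krt8, a keratin of luminal cells, ran from 1393 over a median of 3209 to 8745 CPM in the epithelial columns and from 0.0759 over 9.15 to 107.6 CPM in the leukocyte columns. The classes did not overlap for Krt8, the log2 fold change was 7.60 ± 1.19, and the labelled libraries gave 6.53 ± 0.89 (edgeR adjusted p = 0.0017). Its keratin partner Krt18 lay at 1827 ± 585 against 38.6 ± 31.02 CPM, and Cdh1, the E-cadherin of adherens junctions, at 411 ± 203 against 27.2 ± 25.9 CPM. Grhl2, a transcription factor of epithelial junction genes, lay at 32.6 ± 19.6 against 0.199 ± 0.222 CPM. Scnn1b, a subunit of the epithelial sodium channel, lay at 140 ± 124 CPM in epithelium and had 1 count in all leukocyte columns together, with a log2 fold change of 9.18 ± 0.86 in the labelled libraries (edgeR adjusted p = 0.000626). Prss8, a membrane-bound serine protease that activates this channel, lay at 119 ± 75.7 against 0.821 ± 1.81 CPM. Others among the largest folds with a settled role were Duox1, an oxidase that makes hydrogen peroxide (log2 10.12 ± 1.28), and the keratin Krt23 (10.53 ± 1.37).

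Milk genes were higher in epithelium and differed widely between its columns. Of 9 fitted milk and alveolar genes 3 were separate, with a list median of 7.15. Csn3, the kappa-casein of milk, ran from 119 over 2653 to 18784 CPM in the epithelial columns and from 1.83 over 23.5 to 90.5 CPM in the leukocyte columns. Its lowest epithelial value, in tumour T1 of rat C9, still lay above the highest leukocyte value. Csn3 gave 8.41 ± 1.13 in the untreated and 8.51 ± 0.93 in the labelled libraries (edgeR adjusted p = 0.000849). Lalba, the alpha-lactalbumin that takes part in making lactose, lay at 1328 ± 1220 against 6.99 ± 8.49 CPM. The summed milk genes ran from 330 CPM in tumour T1 of rat C9 to 31812 CPM in tumour T4 of rat C10, and from 109.1 to 3194 CPM in the leukocyte columns, highest in rat C2. The lowest epithelial column thus lay inside the leukocyte range, and rat C2 had 3364 CPM in epithelium. Fabp3, a fatty acid binding protein, went against the list at -0.08 ± 1.32. In rat C2 the paired log2 difference was 4.17 for Csn3, -0.74 for the list member Mfge8 and -1.36 for Fabp3. Which members carry the high leukocyte sum of rat C2 was not tested.

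Hormone receptors and their targets were mostly higher in epithelium. Of 11 fitted genes 2 were separate and the median was 4.63. Prlr, the prolactin receptor, ran from 14.6 over 98.9 to 294 CPM in epithelial and from 0 over 0.804 to 4.30 CPM in leukocyte columns, without overlap. Its labelled log2 fold change was 3.66 ± 0.96 (edgeR adjusted p = 0.0248). Without rat P23 the adjusted p was 0.281, and the call was also lost without rats P10 or P31 and in batch 3 alone (0.0655). Wnt4, a progesterone target in mammary cells, lay at 85.7 ± 76.8 against 1.41 ± 1.12 CPM. Esr1 and Pgr, the estrogen and progesterone receptors, overlapped between classes and were named after their values were seen. Pgr ran from 0 to 162 CPM and Esr1 from 0 to 20.1 CPM over the epithelial columns. Gata3, a transcription factor of luminal cells and of T cells, went against its list at -0.75 ± 0.43.

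Of 14 fitted receptor tyrosine kinases 2 were separate, both towards epithelium. Erbb2, the HER2 receptor, lay at 29.3 ± 11.8 against 0.492 ± 0.938 CPM, with a labelled log2 fold change of 5.27 ± 0.97 (edgeR adjusted p = 0.00574, and 0.0748 without rat P23, and also lost without rat P10). Ddr1, a collagen receptor, lay at 95.1 ± 52.7 against 3.74 ± 4.05 CPM. Mst1r and Ret went against the list, at -0.98 ± 2.55 and -1.04 ± 2.23, where the errors exceed the differences.

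Epithelial columns differed most from each other in stromal genes. The 15 fitted matrix and fibroblast genes all had positive log2 fold changes, with a median of 5.53, yet 0 were separate. Their summed level in the epithelial columns was 130976 CPM in rat C2, 104191 CPM in rat C3, 20929 CPM in rat C7, 16747 CPM in rat C5 and 7166 CPM in tumour T2 of rat C9. The remaining 5 epithelial columns lay between 4.94 and 524 CPM, inside the leukocyte range of 21.2 to 2246 CPM or below it. Col1a1, the main chain of type I collagen, ran from 0.38 to 28909 CPM over the epithelial columns. Its partner Col1a2 had no counts in the leukocyte columns and 0.512 ± 1.04 CPM in the epithelial ones, so it could not be read. The 13 fitted basal and myoepithelial genes had a median of 3.06 and 0 were separate. Krt5 and Krt14, the basal keratins, had no counts in the epithelial column of tumour T4 of rat C10 and reached 295 and 317 CPM in other epithelial columns. Of 11 fitted endothelial genes only Flt1, a receptor of vascular growth factors, was separate, at 116 ± 85.6 CPM in epithelium against 6.21 ± 6.93 CPM. The endothelial median was 0.68, and Pecam1, Kdr and Tie1, proteins of the endothelial surface, lay on the other side of 0 at -1.49 ± 1.40, -2.24 ± 1.94 and -0.53 ± 1.18. In the labelled libraries 1 of 10 endothelial genes passed in each direction, beside 13.3% (DN) and 8.54% (CD45) of all genes, with a median of -1.39. Without rats C2 and C3 the matrix median was 3.96, again with 0 separate genes.

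T cell genes were higher in the leukocyte columns. Of 19 fitted T cell genes 16 were separate, all towards leukocytes, with a median of -6.90. Cd3e, which encodes a signalling subunit of the CD3 complex, ran from 314 over 780 to 1263 CPM in leukocyte columns and from 0 over 4.72 to 49.6 CPM in epithelial columns, without overlap. In the labelled libraries it gave -7.59 ± 1.55 (edgeR adjusted p = 0.00865, and 0.0632 without rat P10). Lck, the kinase that starts T cell receptor signalling, lay at 1180 ± 503 against 46.7 ± 79.8 CPM. The summed T cell genes in epithelial columns ran from 0.633 CPM in tumour T4 of rat C10 to 791 CPM in rat C2, against 3828 to 10657 CPM in leukocyte columns.

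All 7 fitted genes of regulatory T cells were separate towards leukocytes. Foxp3, their defining transcription factor, lay at 99.8 ± 61.9 against 2.04 ± 2.22 CPM. Icos, a costimulatory receptor, ran from 353 over 727 to 1991 CPM in leukocyte and from 0 over 7.51 to 55.3 CPM in epithelial columns. The Icos classes did not overlap, and the labelled libraries gave -8.98 ± 1.78 (edgeR adjusted p = 0.00768). Il2ra, the alpha chain of the interleukin-2 receptor, lay at 809 ± 634 against 12.1 ± 18.7 CPM. Of 12 fitted cytotoxic and natural killer genes 5 were separate, among them Prf1, the pore-forming perforin, at 93.2 ± 79.7 against 3.17 ± 5.39 CPM. Ifng, the gene of interferon-gamma, lay at 46.3 ± 31.2 against 0.256 ± 0.516 CPM.

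Leukocyte adhesion and actin genes were separate in 18 of 19 fitted members, with a median of -5.66. Rac2, a GTPase of blood cells, ran from 996 over 1749 to 2576 CPM in leukocyte and from 0 over 18.4 to 136 CPM in epithelial columns, without overlap. Its labelled log2 fold change was -5.84 ± 1.08 (edgeR adjusted p = 0.00574). Itgb7, the integrin chain of gut-homing lymphocytes, was among the largest folds, at 475 ± 260 against 11.5 ± 18.9 CPM.

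The leukocyte columns did not hold the same mixture. Of 8 fitted B cell genes only Cd22, an inhibitory receptor of B cells, was separate, at 41.1 ± 27.2 against 1.49 ± 2.52 CPM, and the call ended with scaling by total counts. The summed B cell genes ran from 36.4 CPM in tumour T6 of rat C10 to 1024 CPM in rat C17 over the leukocyte columns. Neutrophil genes summed to 48761 CPM in rat C9, where S100a9 reached 36728 CPM, to 1687 CPM in tumour T4 of rat C10 and to 23.5 to 337 CPM in the other leukocyte columns. Of 16 fitted macrophage genes only Cd68, a lysosomal protein of phagocytes, was separate, at 285 ± 249 against 17.8 ± 14.6 CPM, and it was no longer separate with scaling by total counts or by relative log expression. In the labelled libraries Cd68 gave -0.77 ± 1.38 (edgeR adjusted p = 0.748), and 0.78 without rat P10. Of the 16 fitted macrophage genes 13 had negative log2 fold changes, and the list median was -4.40. The summed CPM of the list still overlapped. It ran from 317 to 25278 CPM in leukocyte and from 338 to 16694 CPM in epithelial columns, highest in rat C2 in both classes. Apoe, an apolipoprotein of macrophages and other cells, went against that list at 2.79 ± 0.45 and reached 15978 CPM in the epithelial column of rat C2. Cd14, a coreceptor for bacterial lipopolysaccharide, also lay on the other side of 0, at 0.58 ± 1.15.

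Transcription factors of blood cells were separate in 7 of 12 fitted members, all towards leukocytes. Ets1, a founder of the ETS family in lymphocytes, ran from 380 over 1342 to 2324 CPM in leukocyte and from 3.87 over 58.0 to 158 CPM in epithelial columns. Runx3, a factor of cytotoxic T cells, lay at 195 ± 80.4 against 5.15 ± 6.42 CPM, with a labelled log2 fold change of -5.08 ± 1.34 (edgeR adjusted p = 0.0257, and 0.0524 without rat P35 and 0.057 in batch 3 alone). Ets1 did not pass in the labelled libraries (-3.88 ± 1.25, edgeR adjusted p = 0.0539). Runx1 overlapped between classes at 0.31 ± 0.25. On the epithelial side Grhl2 and Elf3 were separate.

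The promoters of the separate genes were searched for letters modelled on sites of ETS, RUNX, grainyhead-like and AP-1 factors. The search covered both strands of the 250 bases before each RefSeq gene start. The assembly was GRCr8, whose names and not coordinates match the counts, which are of build rn6. A promoter was found for 340 of the 439 leukocyte genes, 285 of the 399 epithelial genes and 8855 of the 11136 genes fitted. The ETS letters GAGGAAGT stood in 7.35% of leukocyte, 2.11% of epithelial and 2.41% of all promoters. The RUNX letters TGTGGTT stood in 10.6%, 3.86% and 3.52%. The grainyhead letters AACNNGTT stood in 2.94%, 2.11% and 2.8%, and the AP-1 letters TGANTCA in 6.18%, 7.02% and 4.61%. N stands for any base. The usual AP-1 site has C or G there, so the AP-1 shares also count looser matches. These motifs can overlap one another, and a match is a description of letters. For each motif 1 promoter is of interest as an example, that of the gene with the largest fold among separate genes of at least 50 CPM that hold it, and 3 are printed with the match in capitals, 5′ to 3′ on the gene's strand. Traf3ip3, an adaptor of lymphocytes (135 ± 90.0 CPM in leukocyte and 1.52 ± 2.21 CPM in epithelial columns), holds the ETS letters at chr13:107248156-107248405 on the minus strand. Itgb7 holds the RUNX letters at chr7:135239072-135239321 on the minus strand. Csn1s1, an alpha-casein (668 ± 866 CPM in epithelial and 2.48 ± 2.89 CPM in leukocyte columns), holds TGAATCA at chr14:20638850-20639099 on the minus strand. This matches TGANTCA with A as the free base and is not the usual AP-1 site.
Traf3ip3: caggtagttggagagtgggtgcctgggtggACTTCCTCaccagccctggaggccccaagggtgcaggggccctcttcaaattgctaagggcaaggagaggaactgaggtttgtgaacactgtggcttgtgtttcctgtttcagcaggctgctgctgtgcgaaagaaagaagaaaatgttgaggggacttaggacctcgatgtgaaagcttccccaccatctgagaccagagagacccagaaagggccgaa
Itgb7: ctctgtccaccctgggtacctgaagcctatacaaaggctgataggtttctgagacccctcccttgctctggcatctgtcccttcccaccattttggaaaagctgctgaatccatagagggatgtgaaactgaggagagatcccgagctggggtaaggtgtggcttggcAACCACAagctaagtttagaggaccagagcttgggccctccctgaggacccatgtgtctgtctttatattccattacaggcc
Csn1s1: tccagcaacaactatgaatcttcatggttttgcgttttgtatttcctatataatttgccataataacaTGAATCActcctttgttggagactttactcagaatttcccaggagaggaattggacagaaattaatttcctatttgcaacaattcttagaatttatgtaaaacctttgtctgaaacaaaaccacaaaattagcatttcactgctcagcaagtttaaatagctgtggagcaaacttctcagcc

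TGF-beta ligands were divided between the classes. Tgfb1, the ligand of immune tissues, was higher in leukocyte columns, at 28.7 over a median of 58.1 to 216 CPM against 0 over 7.63 to 27.3 CPM in epithelial columns. The lowest leukocyte and the highest epithelial value of Tgfb1 lay close together, the log2 fold change was -3.93 ± 1.03, and the separation ended with scaling by total counts (-3.51) or by relative log expression (-3.82). In the labelled libraries Tgfb1 fell by 4.54 ± 0.67 (edgeR adjusted p = 0.00214). Tgfb2 and Tgfb3 lay on the other side. Tgfb2 ran from 7.08 over 47.8 to 131 CPM in epithelial and from 0 over 0 to 0.996 CPM in leukocyte columns, a log2 fold change of 8.15 ± 1.02. Tgfb3 ran from 28.6 over 103.4 to 711 CPM in epithelial and from 0 over 0.532 to 8.74 CPM in leukocyte columns, a log2 fold change of 7.11 ± 1.22. Neither overlapped, and the labelled libraries gave 8.90 ± 1.49 and 7.02 ± 0.73 (edgeR adjusted p = 0.00382 and 0.000764). All 3 ligands passed in the labelled libraries under each of 16 alternatives. Both Tgfb2 and Tgfb3 were highest in the epithelial column of tumour T4 of rat C10. There Col1a1 lay at 0.38 CPM, Krt5 and Csf1r had no counts and the T cell genes summed to 0.633 CPM. The macrophage list summed to 2868 CPM in that column, with a median of 1447 CPM in the leukocyte columns. This sum includes Apoe and Cd14, whose paired log2 differences in rat C10 were 2.53 and 4.64, while the list median of that rat was -2.12. Only 8278 genes had counts in the epithelial column of tumour T4, the fewest of the 20 columns. The source of the ligands was not tested.

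The proteins that hold or activate latent TGF-beta were divided as well. Of 13 fitted genes of ligands and activation, 4 were separate towards epithelium and 3 towards leukocytes. Ltbp1 and Ltbp2, which are latent TGF-beta binding proteins of the matrix, lay at 73.5 ± 67.8 against 1.06 ± 0.93 CPM and at 122 ± 103.3 against 0.563 ± 0.755 CPM. Nrros, which tethers latent TGF-beta on myeloid cells, lay at 8.41 ± 7.34 CPM in epithelium and 94.8 ± 45.8 CPM in leukocytes, a separation that scaling by total counts ended. Itgb8, a chain of an integrin that activates TGF-beta, ran from 24.4 over 80.0 to 382 CPM in leukocyte and from 2.53 over 3.60 to 16.9 CPM in epithelial columns. The 2 highest Itgb8 values, 382 and 261 CPM, were those of tumours T2 and T6 of rat C10, which also had the 2 highest Foxp3 values, 233 and 215 CPM. Both tumours come from the same rat, the values were named after they were seen, and a link was not tested. The Itgb8 classes did not overlap, but the labelled libraries gave -2.67 ± 1.61 (edgeR adjusted p = 0.283), with 0.421 to 366 CPM over the CD45 libraries. The lowest was that of rat P5, and the other CD45 libraries lay at 29.7 to 366 CPM, against 12.3 to 15.8 CPM in DN. Itgb6, the chain of another activating integrin, was higher in epithelium in 7 of 7 rats (6.31 ± 1.05) but had no counts in the epithelial column of tumour T4 of rat C10. It passed in the labelled libraries (6.23 ± 1.25, edgeR adjusted p = 0.00801, and 0.0819 without rat P10, and also lost without rat P23).

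Thbs1, a matrix protein that can release TGF-beta, lay at 773 ± 367 CPM in epithelium and 37.2 ± 24.7 CPM in leukocytes and overlapped between classes, and it passed in the labelled libraries (6.40 ± 0.85, edgeR adjusted p = 0.00149). Ltbp3 and Ltbp4 overlapped at 5.35 ± 0.86 and 2.86 ± 2.07, as did Furin, the protease that cuts the precursor, at 0.91 ± 0.38. Lrrc32, which presents latent TGF-beta on regulatory T cells, ran from 17.5 to 157 CPM in leukocyte columns and from 0 to 1360 CPM in epithelial columns. Its 2 highest epithelial values were 1360 CPM in rat C2 and 439 CPM in rat C3, the columns with the most collagen, and the part of stromal cells in it was not tested. Of 12 fitted receptors and signalling genes 0 were separate and the median was -0.31. Tgfbr1, the target of the inhibitor, lay at 19.6 ± 9.7 CPM in epithelium and 20.8 ± 9.6 CPM in leukocytes, and Tgfbr2 at 83.3 ± 99.4 and 43.4 ± 22.004 CPM. Their log2 fold changes were -0.42 ± 1.10 and -0.20 ± 1.37, and in the labelled libraries -0.12 ± 0.53 and -0.51 ± 0.52 (edgeR adjusted p = 0.903 and 0.545), which became 0.21 and 0.15 without rat P23. Both classes overlapped for these 2 genes, and the errors of the untreated values exceed the differences.

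**Figure D3:**
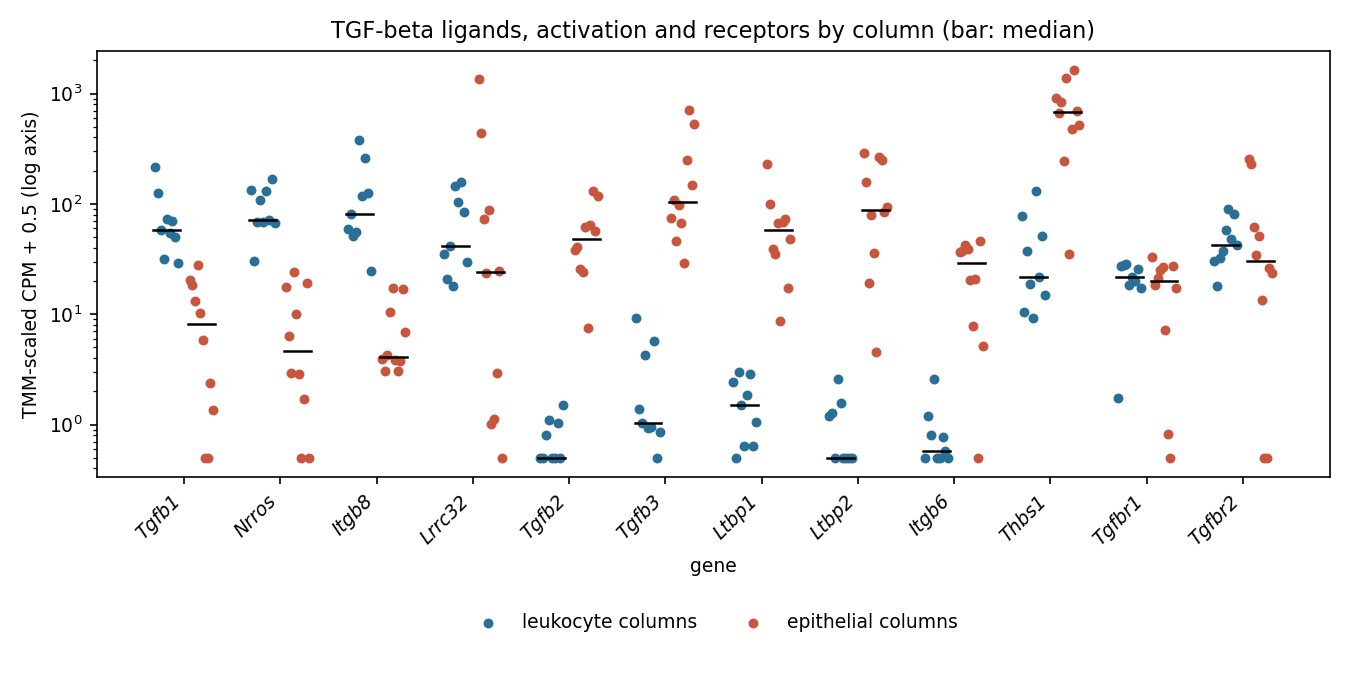
Levels of 12 genes of TGF-beta ligands, activation and receptors in each of 9 leukocyte and 10 epithelial columns, as TMM-scaled CPM plus 0.5 on a log axis, with a bar at the median of each class. Tgfb1, Nrros and Itgb8 lie higher in the leukocyte columns, Tgfb2, Tgfb3, Ltbp1 and Ltbp2 higher in the epithelial columns, and Tgfbr1 and Tgfbr2 overlap.

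Checkpoint ligands were found on both sides. Of 12 fitted ligands 4 were separate towards leukocytes and 2 towards epithelium. Cd274, the gene of PD-L1 and the target of the antibody, ran from 19.1 over 90.8 to 254 CPM in leukocyte and from 0.316 over 12.6 to 47.7 CPM in epithelial columns. The classes overlapped for Cd274, although it was higher in leukocytes in 7 of 7 rats (-2.27 ± 0.59). The labelled libraries gave -2.92 ± 0.63 (edgeR adjusted p = 0.0103, and 0.0541 without rat P23). Pdcd1lg2, the gene of the second PD-1 ligand, ran from 5.56 over 8.54 to 11.6 CPM against 0 over 0 to 1.11 CPM, without overlap. Cd80 and Cd86, the ligands shared by CD28 and CTLA-4, lay at 75.5 ± 69.6 against 1.76 ± 2.14 CPM and at 117 ± 101.1 against 3.93 ± 5.54 CPM, and the separation of Cd80 ended with scaling by total counts. Tnfrsf14, the ligand of BTLA, lay at 296 ± 216 against 4.13 ± 9.16 CPM, one of the 10 largest leukocyte folds. In the labelled libraries Cd80 and Tnfrsf14 fell by 6.14 ± 0.77 and 7.33 ± 1.10 (edgeR adjusted p = 0.00116 and 0.00242).

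The ligands of epithelium were Vtcn1 and Nectin2. Vtcn1, the gene of B7-H4, ran from 26.96 over 47.5 to 252 CPM in epithelial and from 0 over 0.0759 to 4.40 CPM in leukocyte columns, without overlap. Its labelled log2 fold change was 7.11 ± 1.09 (edgeR adjusted p = 0.00263). Nectin2, a junction protein and ligand of the PVR-like receptors, ran from 59.5 over 231 to 337 CPM against 0 over 1.76 to 5.77 CPM, without overlap. The labelled libraries gave 5.77 ± 1.10 for Nectin2 (edgeR adjusted p = 0.00655, and 0.0746 without rat P23, and also lost without rat P10). Cd276, the gene of B7-H3, was higher in epithelium in 7 of 7 rats (3.30 ± 0.50) but overlapped, with no counts in tumour T2 of rat C10. Pvr, Lgals9 and Cd47 overlapped at 0.89 ± 0.31, 0.57 ± 0.46 and -0.32 ± 0.27, and Vsir, the gene of VISTA, at -5.12 ± 1.83.

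All 10 fitted checkpoint receptors had negative log2 fold changes, with a median of -6.59, and 5 were separate towards leukocytes. This list is not of inhibitory receptors alone, since it includes the costimulatory Icos. Ctla4, an inhibitory receptor of T cells, ran from 29.2 over 167 to 389 CPM in leukocyte and from 0 over 0.700 to 18.03 CPM in epithelial columns, and the separation ended with scaling by total counts. In the labelled libraries Ctla4 lay at 3.16 to 331 CPM in CD45 and at 0 to 0.0963 CPM in DN, where a fold would rest on almost no counts (edgeR adjusted p = 0.00481, and 0.0538 without rat P23). Lag3, which binds MHC class II, ran from 107.7 over 396 to 882 CPM against 0.0633 over 7.41 to 49.7 CPM, without overlap, and fell by 6.65 ± 1.09 in the labelled libraries (edgeR adjusted p = 0.00362). Havcr2, the gene of TIM-3, and Cd96, a receptor of PVR, lay at 94.1 ± 72.3 against 3.40 ± 4.34 CPM and at 104.2 ± 38.6 against 2.41 ± 2.57 CPM. Btla, Cd226, Cd244 and Cd28 overlapped between classes at -5.64, -7.27, -6.58 and -6.70. Sirpa, a receptor of CD47 on myeloid cells, lay at -0.26 ± 0.65.

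**Figure D4:**
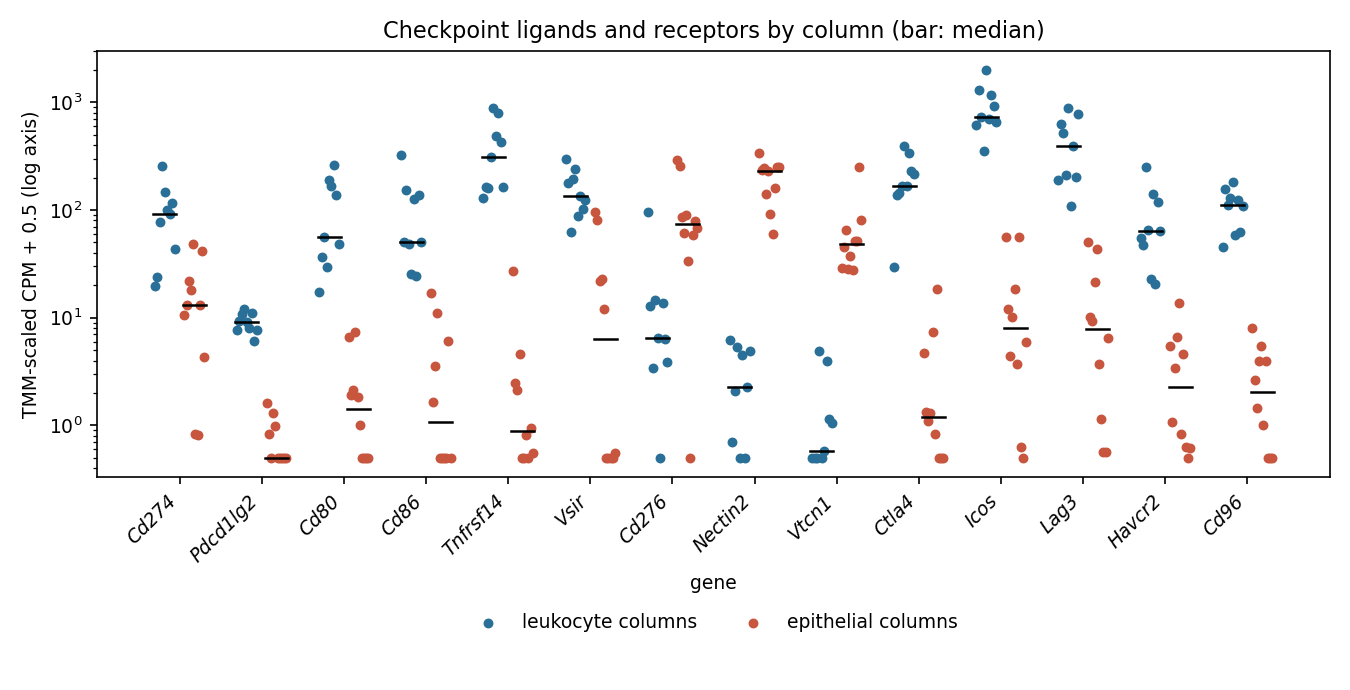
Levels of 14 checkpoint ligands and receptors in each of 9 leukocyte and 10 epithelial columns, as TMM-scaled CPM plus 0.5 on a log axis, with a bar at the median of each class. Vtcn1 and Nectin2 lie higher in the epithelial columns, Cd274, Cd276 and Vsir overlap, and the receptors lie higher in the leukocyte columns.

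Antigen presentation differed by class of MHC. All 9 fitted genes of MHC class II presentation were lower in epithelium, with a median of -4.50, and 2 were separate. The class II genes summed to 278 to 9625 CPM in epithelial columns and 5387 to 163993 CPM in leukocyte columns, so the highest epithelial column (rat C17) overlapped the lowest leukocyte column (tumour T2 of rat C10). Of 13 fitted MHC class I genes only B2m, the light chain of class I molecules, was separate, and the median was -0.76. B2m ran from 5982 over 8395 to 19623 CPM in leukocyte and from 862 over 1864 to 4304 CPM in epithelial columns. Its labelled log2 fold change was -1.40 ± 0.44 (edgeR adjusted p = 0.0481), which passed in 4 of 16 alternatives, with adjusted p between 0.0027 and 0.217. Of 15 fitted type I interferon genes only Mx1, an antiviral GTPase, was separate (-3.29 ± 0.98), until scaling by total counts, and the list median was 0.07.

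Few chemokines were separate. Of 26 fitted, 2 were separate towards leukocytes and 1 towards epithelium, beside 3.94% and 3.58% of all genes, and the median was -1.43. Cx3cl1, the membrane-bound fractalkine, ran from 70.4 over 152 to 279 CPM in epithelial and from 0 over 1.72 to 8.37 CPM in leukocyte columns, without overlap, with 7.17 ± 0.63 in the labelled libraries (edgeR adjusted p = 0.000549). Ccl3 and Ccl4, inflammatory chemokines, were higher in leukocytes, at 472 ± 409 against 8.40 ± 8.80 CPM and at 107 ± 162 against 1.47 ± 1.51 CPM. Cxcl1, a neutrophil attractant, overlapped, with 6196 ± 4831 CPM in epithelium and 1018 ± 1701 CPM in leukocytes. Of 14 fitted chemokine receptors 5 were separate, all towards leukocytes, and Cxcr4, the CXCL12 receptor, lay at 835 ± 473 against 40.6 ± 53.6 CPM until scaling by total counts ended the separation.

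Il33, an alarmin stored in nuclei of barrier cells, was the only one of 18 fitted cytokines separate towards epithelium. It ran from 59.8 over 240 to 769 CPM in epithelial and from 0 over 3.59 to 51.5 CPM in leukocyte columns, and it was no longer separate when genes with low counts were kept in the fit. The labelled libraries gave 3.72 ± 0.84 for Il33 (edgeR adjusted p = 0.013, and 0.113 without rat P10). Il10, which dampens immune responses, ran from 69.7 over 220 to 382 CPM in leukocyte and from 0 over 0.586 to 11.3 CPM in epithelial columns, with -7.35 ± 0.91 in the labelled libraries (edgeR adjusted p = 0.00116). Csf3, the gene of G-CSF, was higher in epithelium in 6 of 7 rats, at 331 ± 354 against 15.2 ± 20.2 CPM, and overlapped.

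Housekeeping programmes mostly did not separate. Of 22 fitted cell cycle genes only Ccnd1, the cyclin D1 of mammary epithelium, was separate, and the median was -0.61. Ccnd1 ran from 217 over 407 to 713 CPM in epithelial and from 14.2 over 56.8 to 95.6 CPM in leukocyte columns. It gave 2.62 ± 0.34 in untreated tumours and 4.01 ± 0.70 in the labelled libraries (edgeR adjusted p = 0.00451, and 0.105 without rat P23). Of 19 fitted respiratory chain genes 0 were separate, with a median of -0.29. Of 15 fitted genes of the early response to tissue dissociation 0 were separate, with a median of 0.51. These early genes summed to 4540 to 130839 CPM in epithelial columns, highest in tumour T4 of rat C10, and to 14246 to 49139 CPM in leukocyte columns. Their part in the other differences was not tested. Of 16 fitted glycolysis and hypoxia genes only Ldha was separate (-1.23 ± 0.24), and it lost the separation under both other scalings.

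**Figure D5:**
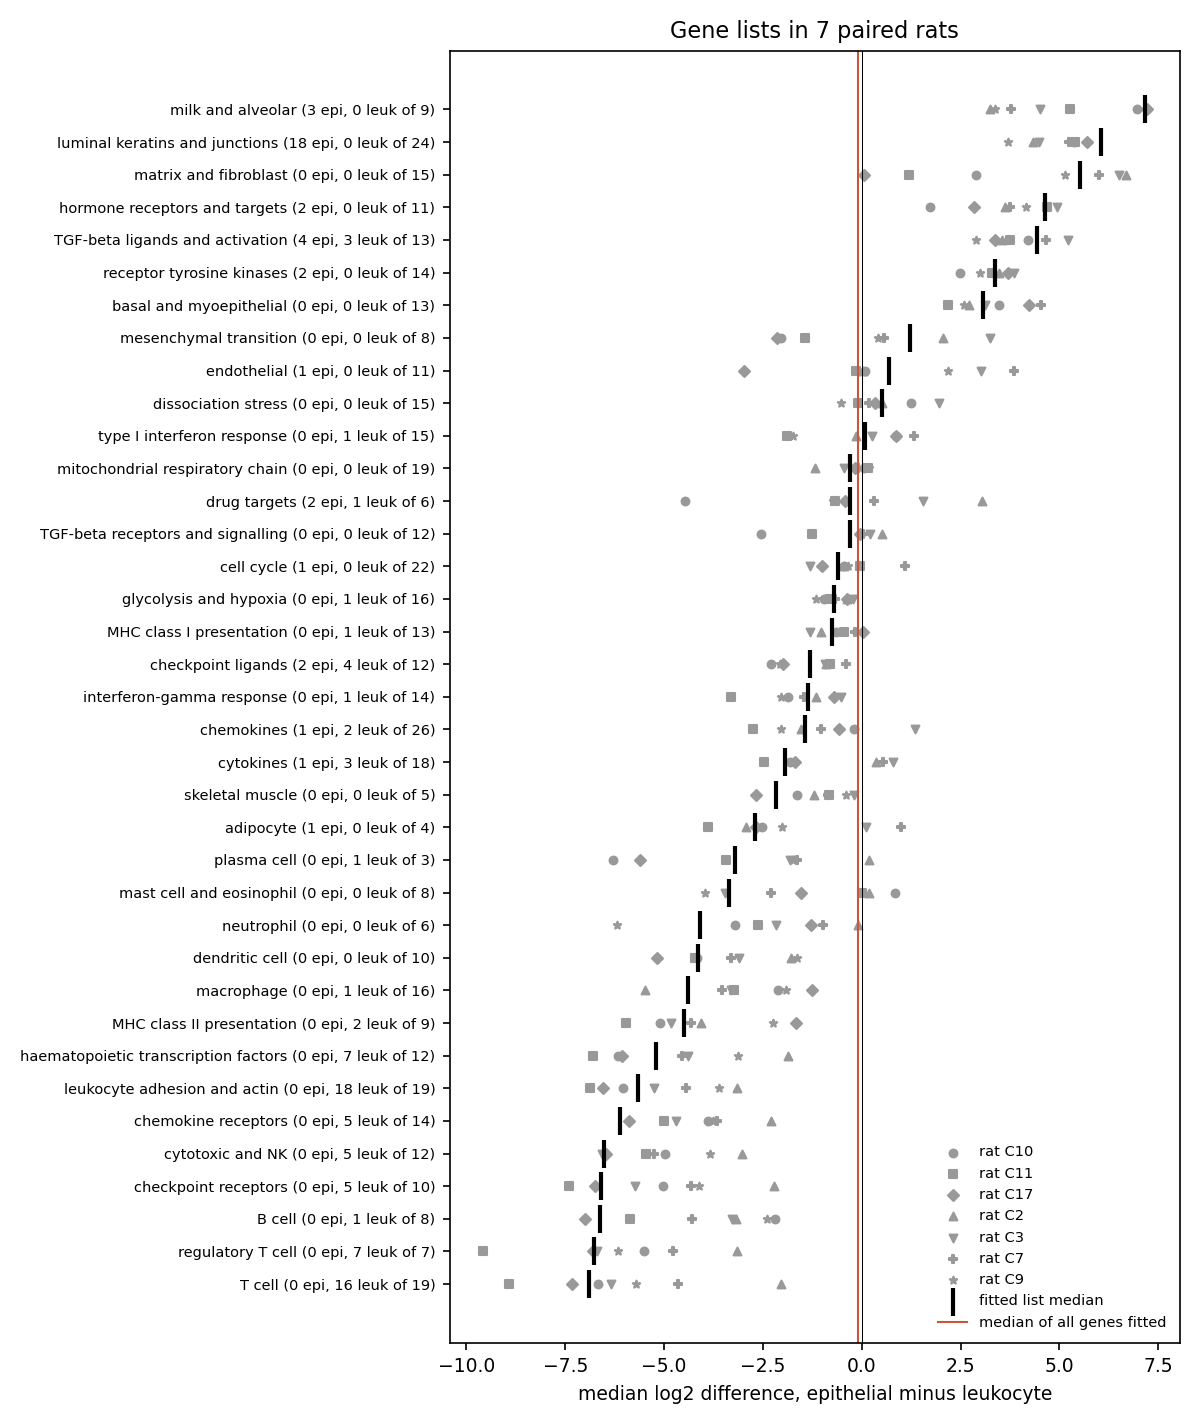
Median log2 difference (epithelial minus leukocyte) of each gene list in each of 7 paired rats (grey symbols), with the median of the fitted values (black bar) and of all genes (red line), and the number of separate genes in each direction beside the list's name. Per-rat values add 0.5 CPM before the log, which draws low genes towards 0, so bars can lie farther out than most symbols. Luminal, milk, matrix and TGF-beta ligand lists lie to the right in all 7 rats, and T cell, adhesion and checkpoint receptor lists to the left.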

How the data were processed

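RNA of sorted cells from rat mammary tumours was sequenced from under 10 ng of RNA after amplification, per the labels' protocols. The deposited table holds raw read counts per gene, and, per the submitters' processing notes, reads went through FastQC and STAR with the rn6 genome. Which counter and annotation were used, and whether strand was, is not given in the sources used here. Overlapping, antisense and near-identical genes may therefore share counts.

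Counts were summed per rat and class, filtered with filterByExpr, scaled by TMM and fitted in edgeR 4.0.16 (limma 3.58.1, R 4.3.3) with the rat as a block. Rats pair the classes because both columns come from 1 animal. Same-rat deviations correlated at 0.0762 (rat C10) to 0.302 (rat C3), and 5 of 7 rats matched their own number best. The labelled libraries, 11 of 10 rats, were fitted with treatment as covariate by the quasi-likelihood test with Benjamini-Hochberg adjustment. The contrast is carried by the vehicle and combination arms, each with 3 CD45 libraries and 1 DN library. The anti-PD-L1 arm had a DN library only and does not inform it. Without rat P10 or rat P23 only 1 arm holds both labels, so the contrast then rests on 1 DN library. DESeq2 1.42.0 was an alternative, as were other scalings, filters, thresholds and leaving out rats. The range of total counts per column limits the precision of genes with few counts. On simulated data with known fold changes the untreated fit called 5.88%, 25.8% and 72.7% of genes changed by 1, 2 and 4 on the log2 scale, and the labelled fit 1.47%, 19.7% and 83.3%. The untreated simulation used counts summed per rat and class, with no difference between rats in the means. The real rule needs every single column to separate, so the untreated percentages may be too high for it.

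The members and gene lists were chosen with earlier results of these data known. Named genes are the 10 largest folds per direction among separate genes of at least 50 CPM, up to 5 separate members per direction of each list, members against their list, and the lists of TGF-beta ligands, checkpoint genes and drug targets. Esr1, Pgr, Foxp3, Grhl2 and Elf3, members that overlap in other lists such as Col1a1, Krt5, Cxcl1 and Csf3, and single columns were named after their values were seen. The 77 other columns were not used.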

Additional observations from a re-analysis of the deposited data

Results flagged for a closer look

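In 17 of 188 groups of 9 or 10 columns, 1 column stood apart from the rest of its class by its gap to the nearest column. Chance alone sets about 1 in 20 such groups apart, and many lists share genes and columns, so the number is no result. All values are TMM-scaled CPM.

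Tumour T1 of rat C9 was the lowest epithelial column for the summed milk genes (330.04 CPM, next 3364 CPM), for the summed TGF-beta ligand and activation genes (283 CPM, next 1104 CPM) and for Thbs1 (34.7 CPM, next 243 CPM). Tumour T4 of rat C10 was the lowest for the summed T cell genes (0.633 CPM, next 29.5 CPM) and for Itgb6 (0 CPM, next 4.69 CPM). Tumour T2 of rat C10, the epithelial column with the fewest counts, was the lowest for the summed receptor tyrosine kinases (124.6 CPM, next 373 CPM) and for Cd276 (0 CPM, next 33.4 CPM). Rat C11 had the highest Vtcn1 (252 CPM, next 80.8 CPM), rat C7 the lowest Erbb2 (11.5 CPM, next 24.7 CPM) and rat C3 the highest summed respiratory chain genes (6860.2 CPM, next 5182 CPM).

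Among leukocyte columns, rat C2 was the lowest for Tgfbr1 (1.22 CPM, next 16.8 CPM), for Ctla4 (29.2 CPM, next 136 CPM) and for the summed skeletal muscle genes (22.2 CPM, next 38.4 CPM). Rat C17 was the highest for the summed cell cycle genes (2139.8 CPM, next 1404 CPM) and for Scnn1b (0.0906 CPM from 1 count, next 0 CPM). Tumour T2 of rat C10 was the lowest for Ccnd1 (14.2 CPM, next 46.1 CPM), and rat C9 the highest for Prss8 (4.90 CPM, next 0.646 CPM).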

How the results depend on the processing

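In the untreated tumours 399 genes were separate towards epithelium and 439 towards leukocytes. The fit with no replicate block, which drops the pairing by rat, gave 399 and 439. Separation is read from the columns without the block, and only the fold comes from the fit. This setting, like DESeq2, could therefore hardly change the counts, and it does not test the pairing. Towards leukocytes, scaling by total counts gave 277. Leaving out 1 rat gave 401 (C5) to 732 (C10) towards epithelium and 440 (C5) to 619 (C10) towards leukocytes. Without rats C2 and C3 the leukocyte count was 719, and without C2, C3 and C5 it was 736, choices made after seeing the data. Fewer columns make full separation easier by construction. Other settings stayed within 1.5 times. Of 94 named separate genes 80 stayed separate with total counts and 90 with relative log expression, and all 94 kept their direction. For the labelled libraries DESeq2 gave 1606 genes and the fit without covariate 1868 genes higher in CD45, and batch 3 alone, chosen after seeing the data, 649. Leaving out 1 rat gave 630 (P23) to 1625 (P5) genes higher in DN and 509 (P10) to 1237 (P5) higher in CD45. Of 56 genes followed, 49 passed and 27 did so under every alternative.

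The median of the mesenchymal transition list (1.21 over 8 genes, 0 separate) lay between -1.84 (without C9) and 3.84 (without C17), and at -2.34 without C2 and C3. It was also below 0 without C3 or C5. The labelled value of Tgfbr1 ran from -0.64 (without P10) to 0.21 (without P23), Tgfbr2 from -1.54 to 0.15 and Cd68 from -6.42 (without P23) to 0.78 (without P10). The causes were not tested. With 3 DN libraries and 10 epithelial columns, differences in genes of few counts could be missed at this depth.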
